A study of Homo sapiens with 4 samples.

Results

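Signals of human chromosome 1 transcript identifiers were compared in 2 runs of identifiers, which were, for the most part, lower in esophageal cancer cells labelled as transfected with STMN1 than in cells carrying the empty vector. Identifiers have the form TC01000835.hg.1, in which the 2 characters after TC stand for the chromosome and the digits that follow are a running number. The runs were chosen from the measured differences between the groups and comprise the running numbers above 347 and below 2066, called the lower-numbered run, and those above 2525, called the higher-numbered run, whose last member has the number 6431. Rows with identical values on all 4 arrays were counted once, and a member needed a mean log2 signal of at least 6, called bright here. There were 1022 members, 409 in the lower-numbered and 613 in the higher-numbered run, out of 10930 bright identifiers and 60789 identifiers in all. Chromosome 1 had 1225 bright identifiers, of which 203 lay outside the runs, and the other chromosomes had 9705. The runs hold 5542 identifiers of any signal, so most of their identifiers were too dim to be members. Because the rule used the contrast between the groups, the differences of the members are descriptions and carry no test.

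KYSE 170 is an established line from a human esophageal squamous cell carcinoma. It was transfected by Lipofectamine either with the expression plasmid pCMV6 carrying the complete STMN1 cDNA or with pCMV6 without an insert, and stable transfectants of both kinds were selected with G418 at 200 µg/ml. The cytomegalovirus promoter of this plasmid drives the cDNA without regard to cell type. There were 2 STMN1-labelled and 2 vector-labelled samples, each on 1 single-colour array with Cy3-labelled cRNA made from 0.2 µg of RNA. The labels call them biological repeats but do not say whether they came from separate clones, cultures or extractions of a single line, so the spread between them may be technical.

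The product of STMN1 is stathmin, which sequesters tubulin dimers and promotes the disassembly of microtubules, and it is often abundant in tumours. Chromosome 1, the largest human chromosome, carries the guanylate binding protein cluster on its short arm and the epidermal differentiation complex, which holds S100 and cornified envelope genes, on its long arm. Transcript identifiers numbered along a chromosome let neighbouring transcripts be read together, whatever their function.

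The annotation gave 1 gene symbol for 592 members, several for 51 and none for 379, and 588 members could be placed in the RefSeq gene order of chromosome 1. The 250 bases before the RefSeq start of 4 genes are shown because these genes stand at both extremes of the runs: GBP1, GBP3 and GBP6 were among the lowest members, and ATF3 was the named gene with the clearest higher signal. All are from RefSeq on GRCh38.p14, written 5′ to 3′ along the gene's own strand, at chr1:89065209-89065458 (minus strand, GBP1), chr1:89022867-89023116 (minus strand, GBP3), chr1:89363809-89364058 (plus strand, GBP6) and chr1:212565157-212565406 (plus strand, ATF3). Capitals mark a match, on either strand, to GAAA repeated after any 2 bases, the core of the interferon-stimulated response element, in the GBP genes, and to TGATGNAA, the core of the element used by stress-induced ATF and C/EBP factors, in ATF3.
GBP1: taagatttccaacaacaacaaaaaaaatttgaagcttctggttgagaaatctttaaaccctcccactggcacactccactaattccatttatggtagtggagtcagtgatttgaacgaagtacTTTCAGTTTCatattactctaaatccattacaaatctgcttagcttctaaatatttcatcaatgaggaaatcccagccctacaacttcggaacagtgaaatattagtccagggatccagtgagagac
GBP3: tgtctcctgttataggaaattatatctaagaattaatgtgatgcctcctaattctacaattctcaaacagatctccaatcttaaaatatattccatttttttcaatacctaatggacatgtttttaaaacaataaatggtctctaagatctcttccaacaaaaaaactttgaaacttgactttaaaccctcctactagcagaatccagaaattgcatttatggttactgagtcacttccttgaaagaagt
GBP6: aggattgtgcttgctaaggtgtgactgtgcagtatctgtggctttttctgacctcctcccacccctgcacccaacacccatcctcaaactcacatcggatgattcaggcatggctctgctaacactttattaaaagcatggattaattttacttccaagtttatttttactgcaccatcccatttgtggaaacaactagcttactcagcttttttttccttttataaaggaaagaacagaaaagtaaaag
ATF3: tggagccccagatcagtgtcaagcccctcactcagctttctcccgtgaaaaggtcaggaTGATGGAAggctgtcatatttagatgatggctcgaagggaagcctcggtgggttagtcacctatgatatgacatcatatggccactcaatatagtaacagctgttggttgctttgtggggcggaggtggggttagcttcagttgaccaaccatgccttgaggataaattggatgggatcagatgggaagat

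The spaced GAAA repeat occurred 1 time in the GBP1 window, 127 bases before the start, and 0 times in the windows of GBP3 and GBP6. TGATGNAA occurred 1 time in the ATF3 window, 191 bases before the start. The GBP1 window also held a TGATGNAA match, 74 bases before the start and apart from the marked one, left in lower case. Both motifs were searched on both strands and were chosen after the values of these genes had been seen. Among all 27305 promoters of 250 bases in the RefSeq table, 3.07% held the spaced GAAA repeat and 3.19% held TGATGNAA. Among the 510 members with a promoter in the table the shares were 2.35% and 1.76%. Of the 9 members with TGATGNAA, only ATF3 and H2AC21 had a mean log2 difference between the groups above 0, while BCAS2 had -1.21 and PPP1R15B -1.13. Each motif was held by 1.79% of the 335 members with both STMN1-labelled arrays below both vector-labelled arrays. A link between these motifs and the direction of a member was not tested.

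The group labels could not be checked against STMN1 itself with certainty. The identifier listed with both STMN1 and MIR3917, number 2383 and outside the runs, measured 5.86 and 5.77 in the STMN1-labelled arrays and 6.11 and 6.13 in the vector-labelled arrays. It was thus not higher in the arrays labelled STMN1 (limma log2 fold change -0.30 ± 0.14 (SE), adjusted p = 0.92). Whether its probes match the transfected cDNA is not given in the sources used here, and every direction given here rests on the labels. Of the squamous epithelial markers, KRT5 measured 6.25 and 7.23 against 9.01 and 8.56 and KRT14 5.36 and 5.24 against 6.29 and 6.14, SOX2 and EPCAM were bright on all arrays, and KRT6A and TP63 had no identifier with a single symbol. Fibroblast and leukocyte markers were dim, with mean log2 signals of 4.43 for COL1A1, 3.55 for COL1A2, 3.26 for VIM and 3.39 for PTPRC. The part of the lower keratin signal in the results was not tested. Over the bright identifiers, replicates correlated at 0.987 and 0.985 and arrays of different groups at 0.979 to 0.985. Over all identifiers, the array medians lay between 3.6 and 3.72.

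Signals of the members were lower in the STMN1-labelled arrays in both runs and by nearly the same amount. Each array was first centred on the median of all bright identifiers, and a difference is the mean of the STMN1-labelled arrays minus the mean of the vector-labelled arrays on the log2 scale. In the lower-numbered run the members' median centred level was -0.18 and -0.15 on the STMN1-labelled arrays and 0.16 and 0.18 on the vector-labelled arrays. In the higher-numbered run it was -0.18 and -0.16 against 0.14 and 0.20. The groups did not overlap in either run, and arrays of the same group lay close together. The median difference was -0.31 in the lower-numbered run (1.24-fold lower) and -0.34 in the higher-numbered run (1.26-fold lower). Over the 4 pairs of 1 STMN1-labelled and 1 vector-labelled array it ranged from -0.33 to -0.29 and from -0.37 to -0.31. Between replicates of the same group the median difference of the members lay between -0.02 and 0 in both runs. The bright identifiers of chromosome 1 outside the runs had a median difference of 0.05, and those of the other chromosomes 0.03. In bulk RNA, fewer cells with a transcript and less of it per cell cannot be told apart.

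Over all members, the gap between the runs in depth was within the spread of the array pairs. The higher-numbered run was lower than the other by 0.02 in the median difference of the members, and this gap was 0.01, -0.04, -0.02 and -0.02 in the 4 pairs, so its sign was not the same in all of them. The middle of the distribution was alike as well. The lower quartile was -0.57 in the lower-numbered run and -0.59 in the higher-numbered run, and the upper quartile was -0.08 in both. The interquartile range, the measure of spread used here, was 0.49 and 0.51, against 0.34 for the rest of chromosome 1 and 0.36 for the other chromosomes. For single pairs of arrays from different groups it was 0.52 to 0.60 in the lower-numbered and 0.53 to 0.65 in the higher-numbered run, and for pairs of replicates 0.40 and 0.42, and 0.50 and 0.42. On the other chromosomes single pairs had 0.43 to 0.55 and replicates 0.45 and 0.41. The full range ran from -1.94 to 1.05 and from -2.34 to 1.16.

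**Figure D1:**
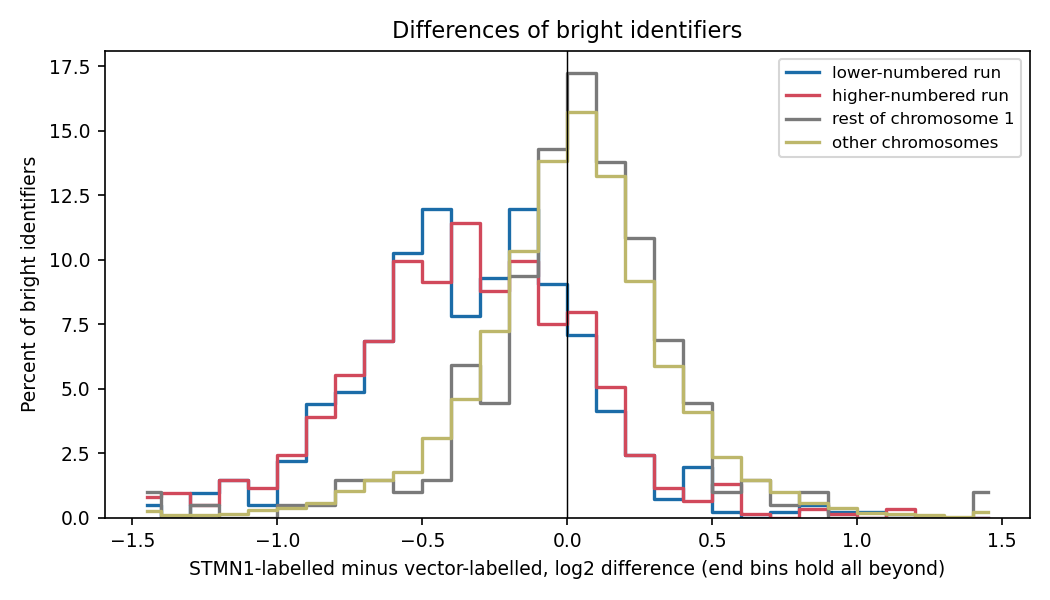
Share of bright identifiers (percent, vertical axis) by log2 difference between STMN1-labelled and vector-labelled arrays (horizontal axis, bins of 0.1), for both runs, the rest of chromosome 1 and the other chromosomes. The curves of the runs lie to the left of 0 and overlie each other, with medians of -0.31 and -0.34, while the other curves peak just above 0.

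The lowering was shared by most members but not by all of them. The difference was below 0 for 336 of the 409 members of the lower-numbered run (82.2%) and for 493 of the 613 members of the higher-numbered run (80.4%). The groups were fully separated, with both STMN1-labelled arrays below both vector-labelled arrays, for 578 members (56.6%), 239 in the lower-numbered run (58.4%) and 339 in the other (55.3%). Over all bright identifiers this share was 20.9%. The opposite separation was seen for 53 members (5.19%), against 21.3% over all bright identifiers. Since the runs were chosen for this contrast, nothing is read from these shares. A change of at least 2-fold in all 4 pairs was rare: 16 members (1.57%) were lower by that much, against 0.348% of all bright identifiers, and 0 were higher.

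In the limma fit of the whole table, which tested 44844 identifiers, 0 identifiers passed an adjusted p of 0.05 in either direction (0% lower and 0% higher). The same fit gave an unadjusted p under 0.05 to 1514 lower identifiers (3.38%) and 1150 higher ones (2.56%). All 1022 members were in this fit, 0 of them passed, and 323 lower members (31.6%) and 18 higher members (1.76%) had an unadjusted p under 0.05. The smallest adjusted p of a member from limma was 0.20, for GBP2. The median 95% interval of a member reached 0.49 to either side of its log2 fold change, which is wider than the median lowering itself. Most identifiers in this fit were dim and every member was bright, so the shares above come from unlike sets. In a limma fit of the 10930 bright identifiers alone, 615 lower and 428 higher ones had an unadjusted p under 0.05, of which 264 and 11 were members. Since the runs were chosen for this contrast, nothing is read from these numbers.

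The dimmer identifiers of the same runs were less lowered than the bright ones. Among identifiers with a mean log2 signal under 4 the median difference was 0.03 in the lower-numbered run and 0.02 in the higher-numbered run. It was -0.07 and -0.05 for signals from 4 to 5, and -0.11 and -0.15 from 5 to 6. Members just above the minimum, with signals from 6 to 7, had -0.27 and -0.22, and those from 7 to 8 had -0.27 and -0.33. From 8 to 10 the medians were -0.37 and -0.40, and from 10 to 12 they were lowest, at -0.43 and -0.47. At 12 and above they were -0.29 and -0.40. Bright and dim identifiers of the other chromosomes had medians of 0 to 0.04 in every class. The part of background signal in the smaller differences of dim identifiers was not tested, since the table has no detection calls. Just above the minimum of 6 stood TC01005848.hg.1 (difference -1.34) and SYDE2 (-0.36), and just below it TC01005461.hg.1 (-0.36) and TRMT13 (-0.11).

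**Figure D2:**
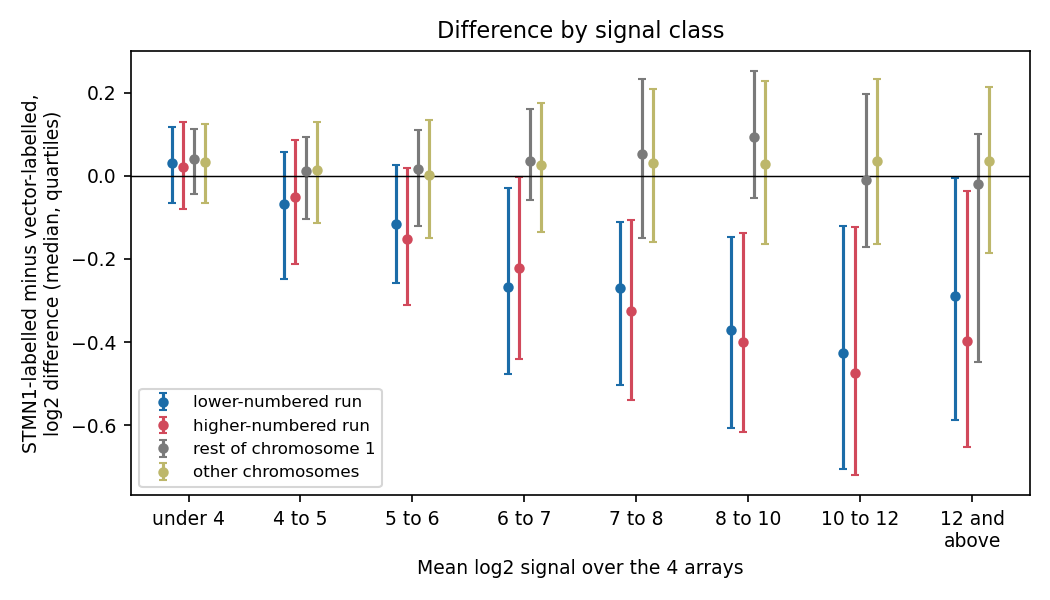
Median log2 difference between STMN1-labelled and vector-labelled arrays (points, with quartiles as bars) by class of mean log2 signal, for both runs, the rest of chromosome 1 and the other chromosomes. In both runs the medians fall from near 0 under a signal of 4 to -0.43 and -0.47 at 10 to 12, while the other chromosomes stay between 0 and 0.04.

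When the running numbers were set against the RefSeq gene order, the 2 runs turned out to be largely the opposite strands of the same stretch of chromosome 1. Among placed identifiers of any signal, the number followed the gene order with a Spearman correlation of 0.982 in the lower-numbered run (854 identifiers) and 0.998 for numbers above 2525 and up to 4096 (750 identifiers), a description across identifiers. In the lower-numbered run, 97.8% of the placed identifiers with a strand lay on the plus strand, and in that block of the higher-numbered run, 99% lay on the minus strand. The numbers up to 347 and from 2066 to 2525, which lie outside the runs, likewise covered the beginning of the short arm on the plus and the minus strand. By number, the lower-numbered run began at ARID1A, a chromatin remodelling subunit, and its placed bright gene farthest along the order was CNST. WASH7P, member number 2050, was the 1 placed member of this run that lies before ARID1A. The higher-numbered run began at MTF1, a metal-responsive transcription factor. Among its numbers up to 4096, the placed bright gene farthest along the order was AHCTF1, a nuclear pore protein.

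The higher-numbered run contained more than this ordered block. Its 354 members numbered up to 4096 had a median difference of -0.36 and an interquartile range of 0.46. The 200 members numbered above 4096 and below 6265 had no gene symbol, so they could not be placed. Their median was -0.29 with an interquartile range of 0.59, and 60 of them (30%) were above 0. The 59 members from 6265 had a median of -0.35 and followed a numbering of their own, with a Spearman correlation to gene order of 0.297 over 107 placed identifiers of any signal. In this last set the genes' place in the order went with the difference. The 35 members at or beyond MTF1 had a median of -0.34 and 3 of them were above 0. The 7 members lying before ARID1A had a median of 0.21 and 6 of them were above 0, among them CDK11B (0.37), a cyclin-dependent kinase, SLC35E2A (0.21) and GNB1 (0.05), a G protein beta subunit. By their place these 7 belong to the beginning of the short arm, whose bright identifiers lay outside the runs, and they were members through their high numbers alone.

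At the ends of the runs the nearest identifiers did not all change at the chosen numbers. HMGN2 (346) and RPS6KA1 (347), just outside, had differences of 0.21 and 0.18, and ARID1A (349) and PIGV (350), just inside, had 0.11 and 0.12. At the other end of that run TC01002057.hg.1 and TC01002064.hg.1 had 0.14 and -0.82, and the identifiers next outside, numbered 2066 and 2072, had -0.03 and 0.11. Before the start of the higher-numbered run, AIRIM and YRDC had 0.11 and 0.30, and after it MTF1 had -0.71 and INPP5B -0.03. MTF1 measured 8.10 and 8.27 in the STMN1-labelled arrays and 8.97 and 8.84 in the vector-labelled arrays, without overlap.

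The stretch between ARID1A and MTF1 was taken into the lower-numbered run, while its identifiers numbered between the runs were left out. In this stretch the run had 39 placed members, of which 34 had a known strand, in each case plus. Their median difference was -0.18, between -0.22 and -0.11 in the 4 pairs, and 7 of them (17.9%) were fully separated upwards. The 27 bright identifiers numbered between the runs, of which 19 had a known strand, in each case minus, had a median of -0.05 over the same genes, between -0.15 and -0.05 in the pairs. Of these 6 (22.2%) were separated upwards, against 21.3% of all bright identifiers. Beyond MTF1 the 253 placed members of the lower-numbered run had a median of -0.38 and the 253 of the ordered block of the higher-numbered run -0.39.

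The evenness of the lowering was read in windows of about 40 neighbouring members. In the lower-numbered run all 10 windows were lower in all 4 pairs, with medians from -0.50 to -0.13 and an SD of 0.126 between windows. The 3 windows numbered 349 to 745 were the shallowest, at -0.19, -0.13 and -0.19, and the deepest was 1653 to 1847. In the higher-numbered run, 14 of 15 windows were lower in all 4 pairs, with medians from -0.49 to -0.16 and an SD of 0.091. The exception, 3915 to 4198, had a median of -0.16, and its pairs ran from -0.34 to 0.01. For single pairs of arrays, the SD of the window medians was 0.122 to 0.157 in the lower-numbered and 0.0987 to 0.130 in the higher-numbered run. The same windows gave SDs of 0.0477 and 0.0685, and of 0.0871 and 0.0785, for the difference between replicates of a group. Windows thus varied more between the groups than between replicates in both runs, by a wider margin in the lower-numbered run. The share of members below 0 ran from 65.9% to 90.2% and from 56.1% to 95.1%.

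**Figure D3:**
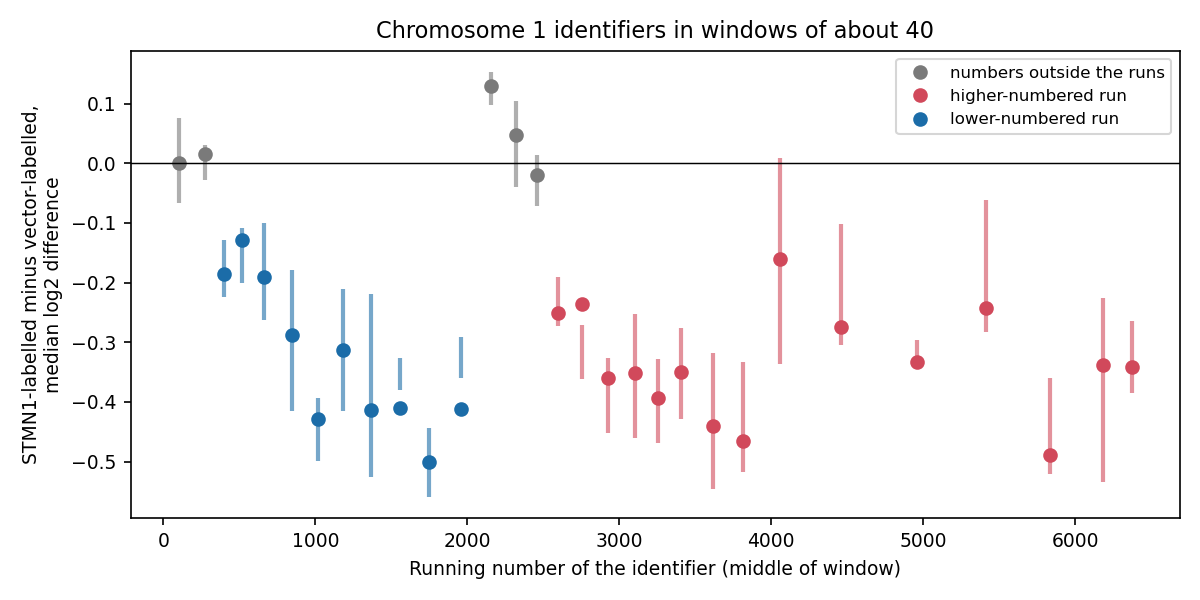
Median log2 difference between STMN1-labelled and vector-labelled arrays (vertical axis) in windows of about 40 bright chromosome 1 identifiers, by running number (horizontal axis), with the range over the 4 array pairs as bars. A point is the median of mean differences and can lie outside its bar. All windows in the runs have medians from -0.50 to -0.13, and those outside lie between -0.02 and 0.13.

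The unplaced members of the higher-numbered run were also read in windows of 20, a size used for them alone. The windows 4530 to 4739 and 5671 to 5852 had medians of -0.51 and -0.55. The windows 4098 to 4251 and 5268 to 5437 had -0.01 and 0.06, with 6 and 4 of their 20 members separated upwards. Over all bright identifiers 21.3% were separated upwards, so nothing is read from these counts. The window 4098 to 4251 was higher in all 4 pairs, from 0.06 to 0.17, and its median of mean differences lay outside this range. The pairs of the window 5268 to 5437 ran from -0.10 to 0.03. Members without a symbol had a median of -0.25 over both runs and 29% of them were above 0, while members with 1 symbol had -0.36 and 12.2%. What the unnamed identifiers represent is not given in the sources used here.

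In gene order the lowering deepened along the short arm and was deepest on the long arm. All placed bright identifiers of chromosome 1 were divided into 12 bins. From WASH7P to VPS13D the median difference was 0.12, from DHRS3 to SELENON 0.05, and from AUNIP to ZMYM4 -0.05. It was -0.18 from KIAA0319L to EIF2B3, -0.19 from HECTD3 to CACHD1, -0.31 from RAVER2 to F3 and -0.44 from SLC44A3 to NBPF8. The bin medians thus fell step by step from above 0 to below 0. Bins this wide cannot show whether the change along the genes was gradual or had an edge. On the long arm the bins had -0.40 (FAM72C to CHTOP), -0.33 (SNAPIN to PEX19), -0.51 (COPA to NIBAN1), -0.47 (TRMT1L to LYPLAL1) and -0.47 (EPRS1 to ZNF695). The bin from COPA to NIBAN1 was the most uniform, with 98.4% of its 64 identifiers below 0 and a median of -0.51 in both numberings.

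**Figure D4:**
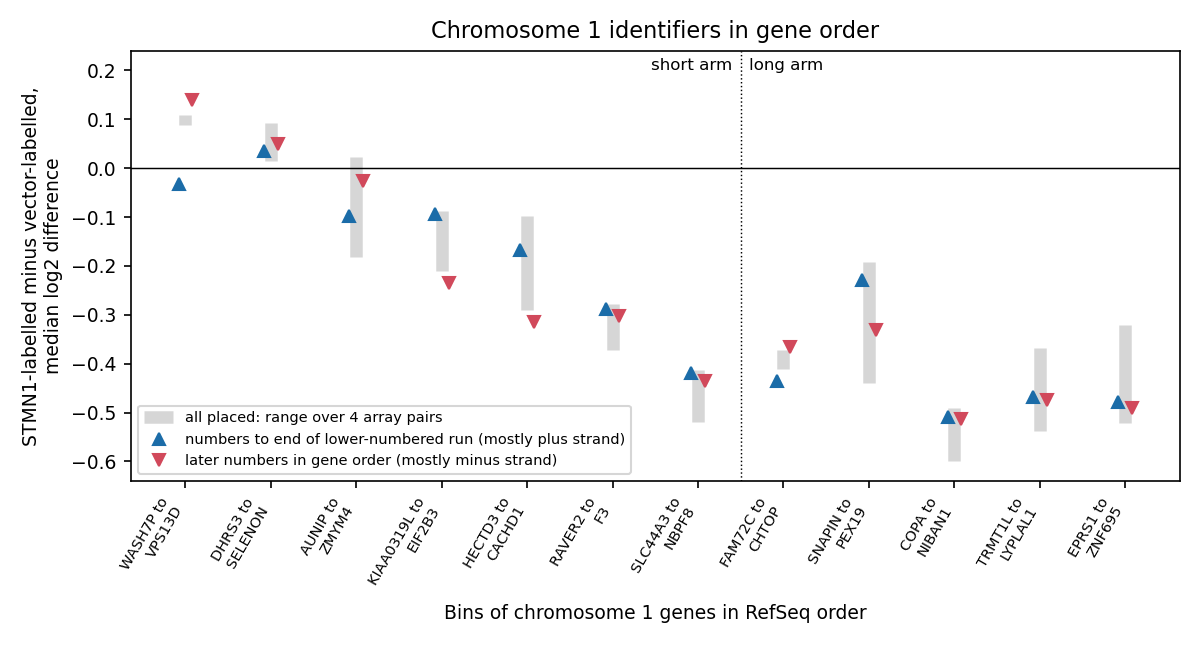
Median log2 difference between STMN1-labelled and vector-labelled arrays (vertical axis) in 12 bins of placed bright chromosome 1 identifiers in RefSeq gene order (horizontal axis), for the numbers up to the end of the lower-numbered run (mostly plus strand) and the later numbers in gene order (mostly minus strand), with the range of all placed identifiers over the 4 array pairs as grey bars. The medians of all placed identifiers fall from 0.12 in the first bin to -0.44 at the end of the short arm and lie between -0.51 and -0.33 on the long arm.

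The arms were divided at the widest gap between neighbouring genes, which lies between EMBP1 and FCGR1CP. The 270 placed members of the short arm had a median difference of -0.27, from -0.31 to -0.27 in the 4 pairs, and the 318 of the long arm had -0.43, from -0.43 to -0.41. The pairs of the arms did not overlap. On the short arm the lower-numbered run had a median of -0.21 (148 members, -0.27 to -0.17 in the pairs) and the higher-numbered run had -0.31 (122 members, -0.37 to -0.30). These pair ranges did not overlap, unlike those over all members, and the short-arm part of the lower-numbered run also covers the stretch from ARID1A to MTF1. On the long arm the runs had -0.45 (145 members, -0.44 to -0.40) and -0.40 (173 members, -0.41 to -0.39). Full separation downwards was seen for 57.4% of the short-arm and 71.4% of the long-arm members. Separated upwards were 20 of the 270 placed members on the short arm and 4 of the 318 on the long arm. Of these 20, 7 lay between ARID1A and MTF1 and 3 before ARID1A, where the lowering was shallow or absent. The short-arm counts and median include that end. Over all bright identifiers 20.9% were separated downwards and 21.3% upwards.

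The lowest members of the lower-numbered run were an unnamed transcript, GBP6, PRKAA2 and SLC44A3, taken as those with the largest separation between the groups. TC01000807.hg.1 had log2 signals of 8.95 and 10.22 in the STMN1-labelled arrays and 11.48 and 11.61 in the vector-labelled arrays (difference -1.94). GBP6, a member of the interferon-induced guanylate binding protein family of large GTPases, measured 8.52 and 8.62 against 9.84 and 9.92 (difference -1.29). PRKAA2, a catalytic subunit of the AMP-activated protein kinase, measured 7.45 and 7.45 against 8.55 and 8.80 (difference -1.21). The STMN1-labelled arrays of these 3 were lower than both vector-labelled arrays, and for TC01000807.hg.1 they differed from each other by more than 1 unit. SLC44A3, a choline transporter-like protein, measured 5.5 and 5.65 against 6.59 and 6.80 (difference -1.11).

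By the same ranking, the lowest 4 members of the higher-numbered run included 3 further guanylate binding protein genes. GBP2 was the lowest of all members, with log2 signals of 6.49 and 6.30 in the STMN1-labelled arrays and 8.77 and 8.73 in the vector-labelled arrays, a difference of -2.34 or 5.06-fold. GBP3 measured 5.97 and 6.36 against 8.04 and 8.14 (difference -1.91), and GBP1 6.69 and 7.18 against 8.44 and 8.60 (difference -1.57). In these genes the groups lay far apart relative to their replicates. The unnamed TC01005350.hg.1 measured 14.63 and 14.55 against 16.29 and 16.47 (difference -1.78). In limma the log2 fold change was -2.35 ± 0.15 (SE) for GBP2, with an adjusted p of 0.20, and -1.31 ± 0.14 (SE) for GBP6, with an adjusted p of 0.54.

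The guanylate binding protein genes lie next to each other, and not all of them had the same difference. GBP4, too dim to be a member, measured 4.25 and 4.14 against 5.59 and 5.26 (difference -1.22). GBP5 and GBP7 were near the bottom of the scale, with differences of -0.08 and -0.25. The 4 members of the family had a median of -1.74, against -0.33 for all members. They had been named for being among the lowest in this same contrast, so nothing is read from their median.

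Other members that were at least 2-fold lower in all 4 pairs and had 1 symbol were CNN3, an actin-binding calponin (-1.85), SNORD78, a small nucleolar RNA (-1.36), and DRAM2, a lysosomal membrane protein (-1.31). CLCA2, a chloride channel regulator of stratified epithelia, had -1.29, ATP2B4, a plasma membrane calcium pump, -1.25, and BCAS2, a spliceosome component, -1.21. These were named after their values had been seen.

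Gene families with at least 3 members, counting identifiers with 1 symbol, were also read after their values had been seen. All 6 S100 genes, which encode small calcium-binding proteins, were below 0, with a median of -0.47. Over all members 81.1% were below 0. S100A9 measured 8.20 and 7.28 in the STMN1-labelled arrays and 9.31 and 8.50 in the vector-labelled arrays (difference -1.15), and S100A2 8.56 and 8.80 against 9.23 and 8.86 (difference -0.35). For both the lower vector-labelled array was close to the higher STMN1-labelled one. They were the bright ones among 11 epidermal differentiation genes looked up, which also included IVL, LORICRIN, FLG and SPRR3. The other 9 were too dim to be members, and IVL, FLG and SPRR3 fell under the filter of the limma fit. Of the 8 tested, 0 passed the adjusted threshold, and 1, S100A9, had an unadjusted p under 0.05.

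The 3 NBPF genes, copies of a family duplicated on chromosome 1, had a median difference of -0.92, which rested largely on 1 array. NBPF14 had centred levels of -0.40 and -0.61 on the STMN1-labelled arrays and -0.01 and 1.03 on the vector-labelled arrays, the last being replicate 2. Near-identical copies such as these may share probes. The 5 small nucleolar RNAs had a median of -0.57, and the 7 spliceosomal RNA genes -0.69 with 6 below 0. The 3 proteasome subunits PSMA5, PSMD4 and PSMB4 were all below 0 (median -0.44), as were the 4 RAB GTPases RAB25, RAB29, RAB4A and RAB13 (median -0.60). Since 81.1% of all members were below 0, nothing is read from families this small lying wholly below 0. Histone genes were the family that did not share the lowering: 2 of 6 were below 0 and the median was 0.21. In H2AC21 the higher level came from 1 of the STMN1-labelled arrays, with centred levels of -0.29 and 0.78 against -0.10 and -0.37. In H2AC25 (difference 0.58), the 1 of these 6 separated upwards, both STMN1-labelled arrays were above both vector-labelled arrays. The identifier listed with H3C13, H3C14 and H3C15, not counted here because it had several symbols, was also separated upwards. It measured 8.67 and 9.52 against 8.56 and 8.50 (difference 0.58).

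The members that escaped the lowering were defined as those with both STMN1-labelled arrays above both vector-labelled arrays. There were 53 of them, 25 in the lower-numbered run and 28 in the higher-numbered run, of which 8 lay in the ordered block, 16 among the unplaced numbers and 4 in the last block. Their differences ran from 0.03 to 1.16. The weaker criterion, a difference above 0, was met by 193 members (18.9%), against 51.4% of all bright identifiers, and by 73 (17.8%) and 120 (19.6%) in the 2 runs. Of the 53, 24 had 1 symbol, 4 had several and 25 had none. Some lay where the lowering was shallow or absent. Between ARID1A and MTF1, where the median was -0.18, they were 7 of 39 placed members (17.9%), among them SESN2, NUDC, ATP5IF1, PIGV and TMEM222. Before ARID1A, where the median was 0.21, they were 3 of the 7 placed members of the last block (42.9%). Over all bright identifiers the share was 21.3%, so these are not exceptions to their surroundings.

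The clearest escapes with a name were ATF3 and CTH. ATF3, a transcription factor induced by many kinds of cell stress, had log2 signals of 8.0 and 8.02 in the STMN1-labelled arrays and 7.0 and 6.95 in the vector-labelled arrays (difference 1.05). CTH, the cystathionine gamma-lyase that makes cysteine, measured 9.48 and 9.53 against 8.66 and 8.65 (difference 0.87). In both genes the replicates were nearly identical and the groups were far apart. The adjusted p of ATF3 in limma was 0.55.

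SMG5, a factor of nonsense-mediated mRNA decay, measured 7.75 and 8.33 in the STMN1-labelled arrays and 7.06 and 7.14 in the vector-labelled arrays (difference 0.95). SESN2, a stress-induced sestrin, measured 8.61 and 9.26 against 8.23 and 8.02 (difference 0.82). CACHD1, a calcium channel-associated protein, measured 6.20 and 6.89 against 5.79 and 5.87 (difference 0.73). In these 3 genes the STMN1-labelled arrays differed from each other more than the vector-labelled arrays did, and the groups stayed apart. H2AC25, a histone H2A gene, measured 8.27 and 8.78 against 7.91 and 8.02 (difference 0.58).

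**Figure D5:**
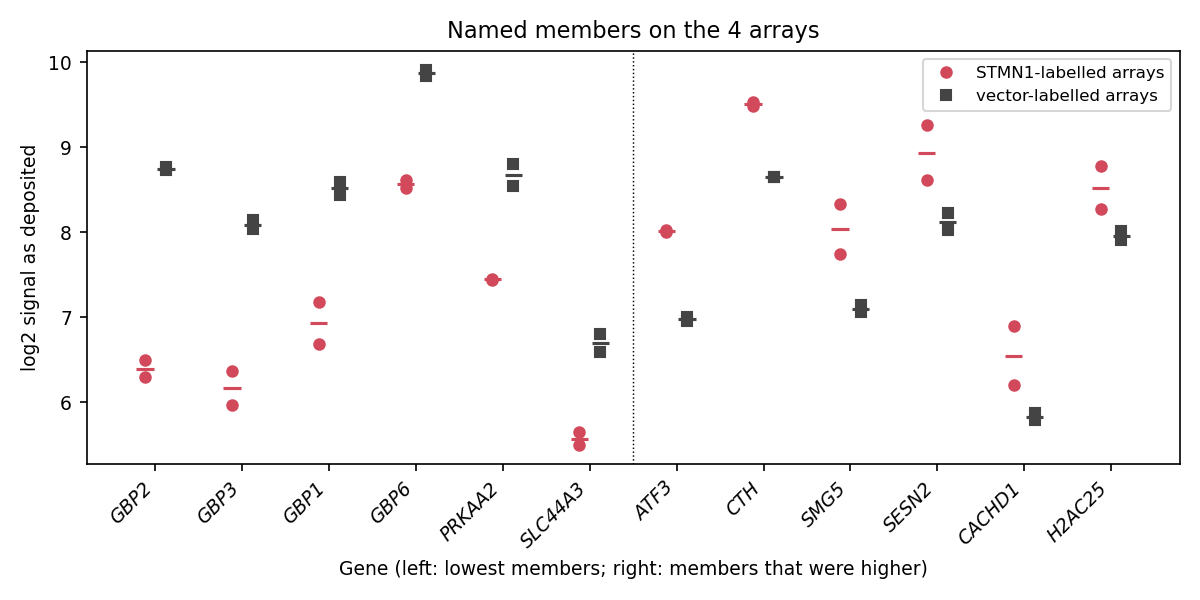
Deposited log2 signals (vertical axis) of 12 named members (horizontal axis) on the 2 STMN1-labelled and 2 vector-labelled arrays, with group means as short lines. To the left are the lowest members with a gene symbol, where GBP2 falls from means of 8.75 to 6.40, and to the right the members with higher signals, where ATF3 goes from 6.98 to 8.01.

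The other 6 of the 12 clearest escapes had no symbol. TC01002688.hg.1 measured 9.42 and 8.64 in the STMN1-labelled arrays and 7.58 and 8.20 in the vector-labelled arrays (difference 1.16), and TC01005506.hg.1 measured 9.46 and 8.40 against 7.55 and 8.10 (difference 1.12). These patterns are so alike that the identifiers may not be separate transcripts. TC01004209.hg.1 (0.81), TC01004267.hg.1 (0.63), TC01005329.hg.1 (0.59) and TC01004262.hg.1 (0.53) all lay among the unplaced numbers.

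The remaining 41 escapes had differences from 0.03 to 0.96, and 18 of them had 1 symbol. They included PHGDH, an enzyme of serine synthesis (0.44), DPH2, an enzyme of diphthamide synthesis (0.52), and ATP5IF1, the inhibitor of the mitochondrial ATP synthase (0.39). OXCT2, an enzyme of ketone body use, was listed for 1 identifier in each run, with differences of 0.47 and 0.38. PPIAL4E, a cyclophilin-like gene with near-identical copies, had 0.49, NUDC, a dynein-associated protein, 0.34, CDK11B 0.37, and the microRNA gene MIR197 0.25. The smaller differences belonged to TMEM222 (0.21), SLC35E2A (0.21), USP1, a deubiquitinase (0.21), PRPF38A, a splicing factor (0.19), TMEM39B (0.17), SLC6A9, a glycine transporter (0.16), PIGV, an enzyme of membrane anchor synthesis (0.12), GNB1 (0.05) and THRAP3 (0.03). For THRAP3 and SLC6A9 the separation between the groups was close to 0.

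The members had promoters richer in CpG than the table at large, whichever way they moved. The comparison was not matched for signal. The 510 members with a promoter had a median of 19 CpG and a GC content of 63.2% in 250 bases, against 11 and 58% for all 27305 promoters. The 335 fully lowered members and the 19 escapes with a promoter each had a median of 19 CpG. Divided by CpG count, members with 0 to 14 had a median difference of -0.35, those with 15 to 19 -0.33, those with 20 to 25 -0.35, and those with 26 to 46 -0.40. The difference thus varied little with the CpG count. GBP1, GBP3, GBP6 and ATF3 had 2, 0, 1 and 4 CpG in the windows printed above.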

How the data were processed

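The authors deposited 1 log2 signal per identifier and array, a scale read from the values. The submitters' processing notes name Agilent Feature Extraction 10.7.1.1. The background correction is not given in the sources used here, nor are the normalization and the genome build, and how identifiers were made from probes is unknown. Gene symbols came from the platform annotation (21225 of 60789 identifiers with 1 symbol, 1288 with several, 38276 with none) and the gene order from RefSeq.

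The members and lists were chosen with earlier results of these data known. Identical rows were counted once, which left out 53 bright rows in the runs. Named were, per run, the 4 members with the largest separation of the groups, the 12 clearest members with higher signals, identifiers at the ends of the runs and at the signal minimum, the epidermal differentiation genes and the markers. Others were named after their values were seen.

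limma 3.58.1 (R 4.3.3; lmFit and eBayes, two-sided, Benjamini-Hochberg) was run without a block on identifiers whose mean was not under the 25th percentile, after a test on simulated data. Its p-values measure only the spread between these samples. Summaries used pandas 2.3.3 and numpy 2.4.6 in Python 3.11.15. Alternatives covered the centring, normalization, signal minimum, identical rows, ends of the runs and each array left out. The number of arrays limits the precision.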

Additional observations from a re-analysis of the deposited data

How the results depend on the processing

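The median difference stayed below 0 in both runs under every alternative run. In the lower-numbered run it was -0.34 with arrays centred on the other chromosomes, -0.25 with a signal minimum of 5, -0.41 with a minimum of 8, and -0.34 to -0.32 leaving out each array in turn. In the higher-numbered run it was -0.26 and -0.42 with these minimums, -0.36 with only the members of the block in gene order (chosen after seeing the data), and -0.35 to -0.32 leaving out each array. The gap between the runs was -0.0518 with only that block, and -0.0206 to -0.0012 leaving out each array. The interquartile range was 0.552 in the lower-numbered run with a minimum of 8, and leaving out each array it ran from 0.469 to 0.571 there and from 0.509 to 0.609 in the other run. With minimums of 5 and 8 the escapes numbered 83 and 26, and with 8 the fully lowered members numbered 316, since the set of members itself changes. Leaving out an array eases separation by construction: 697 to 711 members were then fully lower and 111 to 135 fully higher. In limma, 0 members passed under every alternative, and over all identifiers 2 passed with equal 75th percentiles, 2 with a minimum of 6, and 0 to 2 leaving out each array (2 without vector replicate 1 and 1 without vector replicate 2), where a single remaining array takes its spread from the other group.

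With the replicate number as a block, 0 identifiers and 0 members passed, and 1814 lower and 1317 higher identifiers (340 and 18 of them members) had an unadjusted p under 0.05. Deviations of same-numbered arrays had a correlation of 0.138 over the tested identifiers and -0.0979 over the bright ones, and no label says that the numbers mark a shared batch. The table has no detection calls to set signals against background, and the 2 arrays per group limit the precision.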
